A study of Mus musculus with 394 samples.

Results

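The Input libraries of P2 synaptosomes from ventral midbrain were compared with the Input libraries of P2 synaptosomes from striatum. A synaptosome is a pinched-off nerve ending that reseals when brain tissue is homogenised, and the P2 pellet collects such endings together with free mitochondria, myelin fragments and debris. The Input is the part of each lysate set aside before the anti-HA immunoprecipitation, so it samples all RNA of the pellet and not the RNA on tagged ribosomes. Libraries were chosen by region, fraction and a minimum of 10000 unique molecular identifiers (UMIs, one per captured RNA molecule). This left 48 of 52 synaptosome Input libraries in a series of 394 samples. They were 28 midbrain libraries, of which 12 came from RiboTag_DATCreNeg and 16 from RiboTag_DATCrePos mice, and 20 striatal libraries, of which 10 came from each genotype. All these mice were 10 to 14 months old and carried RiboTag, a ribosomal protein allele that gains an HA tag only where Cre recombinase is present. In the RiboTag_DATCrePos mice Cre was driven from the dopamine transporter gene and so acts in dopamine neurons, and the RiboTag_DATCreNeg littermates had no Cre. As a reference, 38 Input libraries of whole tissue from mice of the same genotypes and age were used, 10 each of striatum, substantia nigra pars compacta (SNc) and substantia nigra pars reticulata (SNr) and 8 of ventral tegmental area (VTA).

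The midbrain libraries held 33287 to 95186 UMIs (median 56245) and the striatal libraries 12735 to 23921 (median 17584). Over all 52 libraries the midbrain total was 4.26-fold higher, and over the 48 it was 3.23-fold higher, each with p = 2e-05, the smallest that 100000 resamples can give (two-sided permutation test on log10 totals). The midbrain libraries had 7032 to 11182 genes with a UMI and the striatal libraries 3553 to 5483. All midbrain synaptosomes were prepared on 1 library plate and all striatal synaptosomes on another, so region and plate cannot be told apart within the synaptosomes, whereas the 4 tissues shared 1 plate. No synaptosome library stood apart from its group in its gene profile, 6 of the 38 tissue libraries did, and no pair of libraries agreed within sampling noise. The labels name no animal. There were 28 midbrain and 24 striatal Input libraries beside 14 and 8 immunoprecipitate libraries, and in midbrain each genotype had exactly 2 Inputs per immunoprecipitate. In striatum each genotype had 12 Inputs and 4 immunoprecipitates, before the limit on UMIs. The study's mouse numbers for the midbrain synaptosome immunoprecipitates equal the numbers of those libraries in each genotype. Unless some Inputs came from further mice, wells therefore outnumbered mice in midbrain, and the same may hold in striatum. The standard errors and p-values, which measure the spread between wells, are then too small.

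One gene took a large part of the striatal libraries. Dusp10, which encodes a phosphatase of stress-activated kinases, held 14.8% to 27.5% of all UMIs (median 20.1%) in striatal synaptosomes and 0 to 0.0227% in midbrain synaptosomes. In tissue the median share was 1.68% in striatum, 2.81% in SNc, 2.71% in SNr and 2.50% in VTA. Levels below are therefore CPM, a gene's UMIs scaled by the library total, with that total taken over all genes other than Dusp10. On that scale Actb, the cytoplasmic actin gene often used as a reference, had a level of 2943 to 4475 (median 3606) in midbrain and 2488 to 4953 (median 3572) in striatal synaptosomes. Its log2 fold change, midbrain over striatal, was -0.01 ± 0.07 (SE; adjusted p = 0.934, edgeR quasi-likelihood test), but 0.55 with TMMwsp scaling, 0.56 with TMM, 0.35 with total UMIs and 0.28 with all 52 libraries.

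Medium spiny neurons make up most of the striatum. They release GABA, receive dopamine through D1 or D2 receptors, and are recognised by signalling proteins such as DARPP-32 and by opioid and tachykinin peptides. The dopamine neurons of the SNc and VTA lie in the ventral midbrain among glutamatergic and GABAergic neurons. Their axons end in the striatum, and the axons of one class of spiny neurons end in the SNr. P2 pellets of both regions also hold terminals of other neurons and membranes of glia.

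The regional contrast was broad. Of 12635 genes with at least 10 UMIs over the 48 libraries, 2307 (18.3%) were higher and 2071 (16.4%) lower in midbrain than in striatal synaptosomes at an adjusted p under 0.05 (edgeR with genotype as covariate). The median log2 fold change of all genes was 0.31. With TMMwsp scaling that median was 0.77 and the calls split into 4549 higher and 1490 lower, with TMM into 4618 and 1474, with total UMIs into 3644 and 1668, and in libraries of at least 20000 UMIs into 627 and 1135. A count of genes on either side of 0 thus depends on the scaling and on the libraries used, and the values below are read against the median of 0.31. The 33 libraries of at least 20000 UMIs were 28 midbrain libraries and striatal libraries of RiboTag_DATCrePos mice only. Thinning every library to 10000 UMIs left 2192 called genes of which 2097 were among the 4378, all 2097 with the same sign.

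Spiny neuron genes were lower in midbrain synaptosomes, which puts the striatal label and these markers on the same side. Of 32 listed genes 28 could be tested, and 24 were lower, 0 higher and 4 not called, with a median log2 fold change of -2.85. With TMMwsp scaling 22 were lower and 1 higher. In whole tissue 30 of 31 were lower in midbrain, with a median of -3.34. The summed level of the list ran from 5309 to 10627 (median 6962) in striatal synaptosomes and from 751 to 1338 (median 1012) in midbrain synaptosomes, with no overlap. In striatum tissue the sum was 15117 to 17754 (median 15747), and the median was 1542 in SNc, 4015 in SNr and 1445 in VTA. The striatal synaptosomes therefore lay above all midbrain synaptosomes and below all striatum tissue libraries in summed spiny neuron RNA. In such bulk samples fewer endings of one cell type and less RNA per ending cannot be told apart.

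Ppp1r1b, the gene of DARPP-32, which relays dopamine signals to protein phosphatase 1, had a level of 0 to 108 (median 42.5) in midbrain and 1131 to 2772 (median 1776) in striatal synaptosomes. The lowest striatal library was above the highest midbrain library, as for 67 of all genes tested (0.53%) in this direction, and 2 of them were members of this list. The log2 fold change was -5.25 ± 0.15 (adjusted p = 1.58e-86). In striatum tissue its level was 1072 to 2341 (median 1820), a range that overlaps the striatal synaptosomes, and the tissue log2 fold change of midbrain over striatum was -3.66 ± 0.14 (adjusted p = 1.27e-50). The difference between the contrasts, synaptosome minus tissue, was -1.70 ± 0.24 (log2, adjusted p = 1.54e-09), and -0.30 and not called when libraries under 10000 UMIs were kept in.

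Penk encodes the precursor of enkephalin, the peptide of striatopallidal spiny neurons. Its level was 23 to 141 (median 62.1) in midbrain and 505 to 1848 (median 896) in striatal synaptosomes, again without overlap. The log2 fold change was -3.82 ± 0.16 (adjusted p = 2.51e-58), beside -3.65 ± 0.15 in tissue, and the difference between both contrasts was -0.27 ± 0.24 (adjusted p = 0.450). Of the other members, Rgs9, whose product speeds the shutdown of G proteins downstream of dopamine receptors, was at 0 to 54.8 in midbrain and 0 to 755 (median 252) in striatal synaptosomes, with a log2 fold change of -4.61 ± 0.35. Arpp21, a cAMP-regulated phosphoprotein gene, was at 0 to 138 (median 52.2) and 53.8 to 1255 (median 311), with -2.92 ± 0.23. Rasd2, the gene of the striatal small GTPase Rhes, was at 0 to 126 (median 21.1) and 53.6 to 539 (median 249), with -3.09 ± 0.28. Pde1b, a calmodulin-dependent phosphodiesterase gene, had a log2 fold change of -3.03 ± 0.25. In these 4 genes the ranges of both regions overlapped while the medians lay far apart. Foxp2, Gnal, Rarb and Rgs2, named here because they were the listed genes not called, had log2 fold changes of -0.08, -0.39, -1.18 and 0.20.

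Receptor genes that divide the spiny neurons into classes were poorly sampled. Adora2a, an adenosine receptor gene of striatopallidal neurons, had 1 UMI in 28 midbrain libraries and 17 UMIs in 10 of 20 striatal libraries, where the level was 0 to 250 (median 25.4). Its log2 fold change was -4.04 ± 0.58 (adjusted p = 9.63e-10). Drd1, the D1 receptor gene, had 0 UMIs in midbrain and 5 UMIs in 5 striatal synaptosome libraries, too few to test, and a level of 80.9 to 242 (median 152) in striatum tissue. Drd2, the D2 receptor gene, had 8 UMIs in 7 midbrain libraries and 0 in striatal synaptosomes, and a count of 0 in 287507 UMIs allows a level of up to 10.4. Its level in striatum tissue was 0 to 10.7, so its low count is not particular to the synaptosomes. Limits of this kind cover counting error only.

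**Figure D1:**
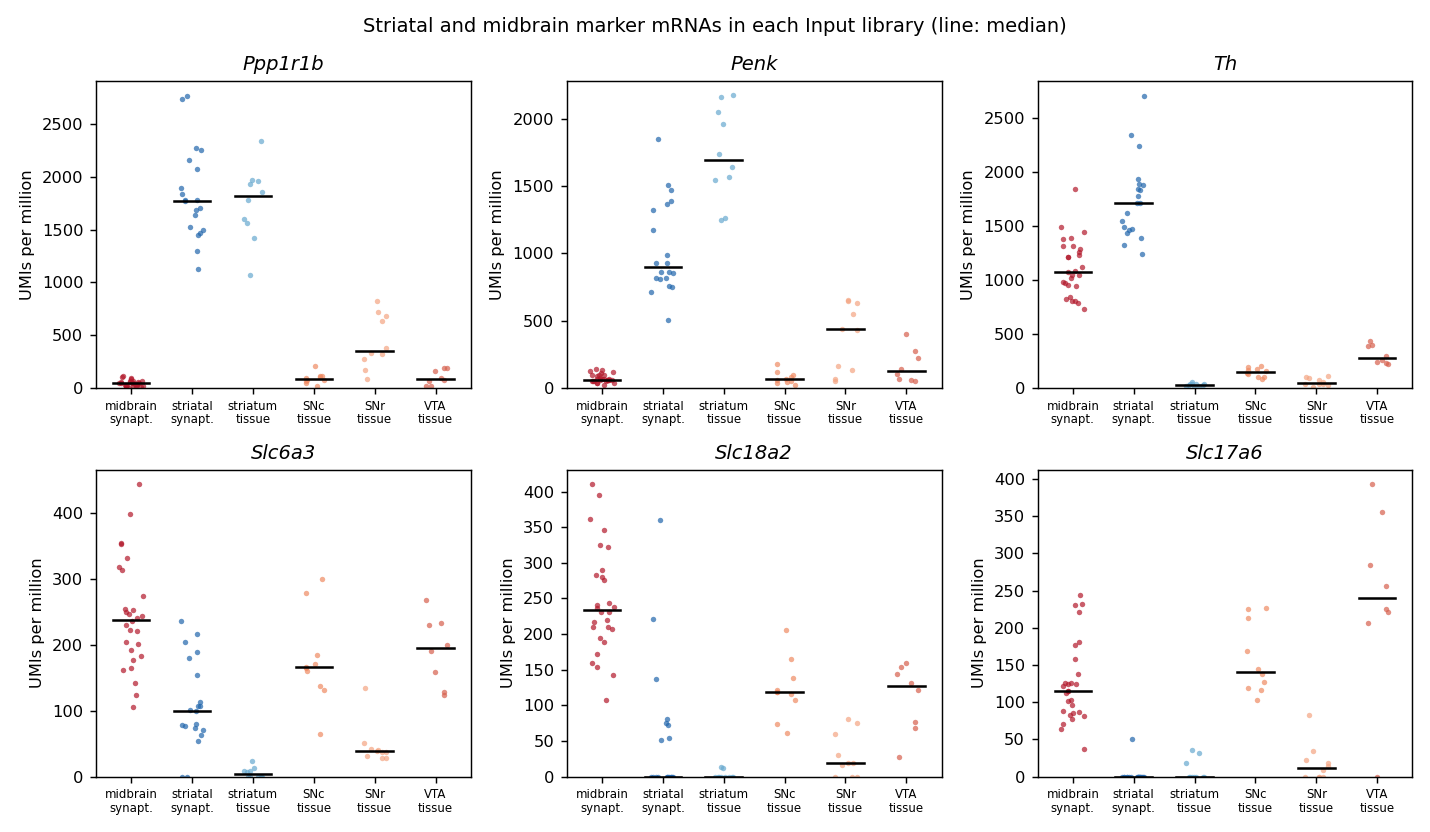
Levels of 6 marker mRNAs in each Input library, in CPM without Dusp10 on a linear axis. Points are libraries of the 2 synaptosome groups and the 4 tissues, and lines are group medians. Ppp1r1b and Penk separate both synaptosome groups, Slc6a3, Slc18a2 and Slc17a6 lie higher in midbrain, and Th lies higher in striatal synaptosomes (median 1716 against 1076).

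Dopamine neuron genes mostly pointed to midbrain, with Th as the exception. Of 19 tested genes of 20 listed, 9 were higher and 1 lower in midbrain synaptosomes, and the median log2 fold change was 1.30, or 1.00 with the 4 genes at 0 in striatum set to their lower bound. With TMMwsp scaling 12 were higher and 0 lower. In tissue 11 of 17 were higher in midbrain and 0 lower, with a median of 2.30. Without Th the summed level was 1403 to 2793 (median 2121) in midbrain and 427 to 1088 (median 781) in striatal synaptosomes, and 123 to 246 (median 164) in striatum tissue. The striatal synaptosomes were thus below all midbrain synaptosomes and above all striatum tissue libraries in these RNAs. In sorted small particles of striatal synaptosomes, from younger mice of other genotypes and on another plate, the sum was 29.1 to 209 (median 129). It had the same range and median there when Th was included. Why the striatal synaptosome Inputs lay above these particles was not tested.

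Th encodes tyrosine hydroxylase, the rate-limiting enzyme of dopamine synthesis. Its level was 731 to 1844 (median 1076) in midbrain and 1244 to 2706 (median 1716) in striatal synaptosomes, so the ranges overlapped and the striatal median was the higher. The log2 fold change was -0.68 ± 0.10 (adjusted p = 8.25e-10), against -0.12 with TMMwsp and -0.11 with TMM scaling, under which it was not called. In tissue the order was the opposite, with a level of 0 to 53.1 (median 29.8) in striatum, 82.4 to 207 (median 146) in SNc, 8.46 to 113 (median 47.9) in SNr and 222 to 432 (median 273) in VTA. The tissue log2 fold change was 2.08 ± 0.24 (adjusted p = 4.87e-13) and the difference from it in synaptosomes was -2.78 ± 0.25 (adjusted p = 1.39e-20). Every synaptosome library of both regions lay above every tissue library in Th. Th followed this order in both genotypes, and the striatal medians were 1813 in RiboTag_DATCreNeg and 1628 in RiboTag_DATCrePos mice and the midbrain medians 1260 and 1058.

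The other genes of dopamine handling kept the tissue direction at a smaller size. Slc6a3, the dopamine transporter gene, had a level of 105 to 444 (median 238) in midbrain and 0 to 237 (median 100.4) in striatal synaptosomes, with a log2 fold change of 1.08 ± 0.24 (adjusted p = 0.000111). In tissue the change was 4.15 ± 0.36, and the difference from it in synaptosomes was -3.01 ± 0.50 (adjusted p = 2.09e-07). Ddc, which encodes the decarboxylase that forms dopamine from L-DOPA, was at 39.4 to 438 (median 242) in midbrain and 0 to 313 (median 116) in striatal synaptosomes, with 0.96 ± 0.24, beside 2.41 ± 0.26 in tissue. Slc18a2, the vesicular monoamine transporter gene, was at 107 to 410 (median 233) in midbrain and had UMIs in 8 of 20 striatal libraries, with 2.24 ± 0.32, beside 4.09 ± 0.47 in tissue. The difference between both contrasts was -1.45 ± 0.40 for Ddc (adjusted p = 0.00314) and -1.70 ± 0.65 for Slc18a2 (adjusted p = 0.0439), and neither was called with TMM or TMMwsp scaling. In the 33 libraries of at least 20000 UMIs the synaptosome changes of Slc6a3 and Ddc were 0.56 and 0.46 and not called. Of these libraries 28 were midbrain, and the few striatal ones were all from RiboTag_DATCrePos mice.

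En1, Dlk1, Aldh1a1 and Ret, named for their small p-values among the dopamine neuron genes, were higher in midbrain synaptosomes. Another 9 of the 19 tested genes of that list were not called, with log2 fold changes from -0.16 to 2.24. En1, a homeobox gene of the midbrain, had a level of 0 to 157 (median 59.6) in midbrain and 0 UMIs in striatal synaptosomes, which makes it at least 6.39-fold higher in midbrain with 3 UMIs over the group as the limit. Dlk1, a delta-like membrane protein gene of midbrain dopamine neurons, was at 252 to 641 (median 484) in midbrain and 0 to 250 (median 116) in striatal synaptosomes, without overlap. Its log2 fold change was 1.79 ± 0.21 (adjusted p = 1.03e-13), beside 1.58 ± 0.20 in tissue. Aldh1a1, the retinaldehyde dehydrogenase gene of ventral SNc neurons, changed by 1.30 ± 0.20 in synaptosomes and 2.55 ± 0.22 in tissue, a difference of -1.26 ± 0.33 (adjusted p = 0.00194) that was not called with TMM or TMMwsp scaling and was 0.07 with all libraries. Ret, the GDNF receptor gene, changed by 2.17 ± 0.44 and 2.43 ± 0.46, a difference of -0.16 ± 0.36 (adjusted p = 0.805).

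Genes of other midbrain neurons were higher in midbrain synaptosomes as well. Of 13 tested genes of the list of 19 for midbrain and hindbrain neurons, 8 were higher and 0 lower, with a median log2 fold change of 1.76 (1.28 with lower bounds). Slc17a6, the vesicular glutamate transporter gene of subcortical neurons, had a level of 36.6 to 244 (median 115) in midbrain and 1 UMI in 20 striatal libraries, a log2 fold change of 4.25 ± 0.60 (adjusted p = 6.99e-10). Tcf7l2, a Wnt pathway transcription factor gene of the thalamus and midbrain, changed by 3.27 ± 0.57, Spp1 (osteopontin) by 2.74 ± 0.64 and Nefh (heavy neurofilament) by 1.28 ± 0.23. Tph2, the serotonin-forming hydroxylase gene, had 71 UMIs in 25 midbrain libraries and 1 UMI in striatal synaptosomes. The summed list reached 424 to 961 (median 810) in midbrain and 0 to 481 (median 149) in striatal synaptosomes, beside a median of 1227 in SNc, 1052 in VTA and 94.9 in striatum tissue.

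Genes of cortical neurons, whose axons also end in the striatum, showed a weaker contrast. Of 9 tested cortical glutamatergic genes of 14 listed, 3 were lower and 0 higher in midbrain (2 and 1 with TMMwsp scaling), with a median of -0.61. Nrgn, the gene of the calmodulin-binding protein neurogranin, was at 28.8 to 183 (median 83.7) in midbrain and 232 to 1078 (median 551) in striatal synaptosomes, a log2 fold change of -2.68 ± 0.18. Slc17a7, the cortical vesicular glutamate transporter gene, had 13 UMIs in 10 midbrain and 2 UMIs in 2 striatal libraries and a log2 fold change of 0.11 ± 0.83 (adjusted p = 0.928). For GABAergic neurons in general 1 of 6 tested genes was higher and 1 lower (4 and 0 with TMMwsp scaling), and for striatal interneurons 1 of 4 was lower, Npy, the neuropeptide Y gene, with -2.28 ± 0.47. Pvalb, the parvalbumin gene of fast-spiking neurons, was the higher one with 1.04 ± 0.25.

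**Figure D2:**
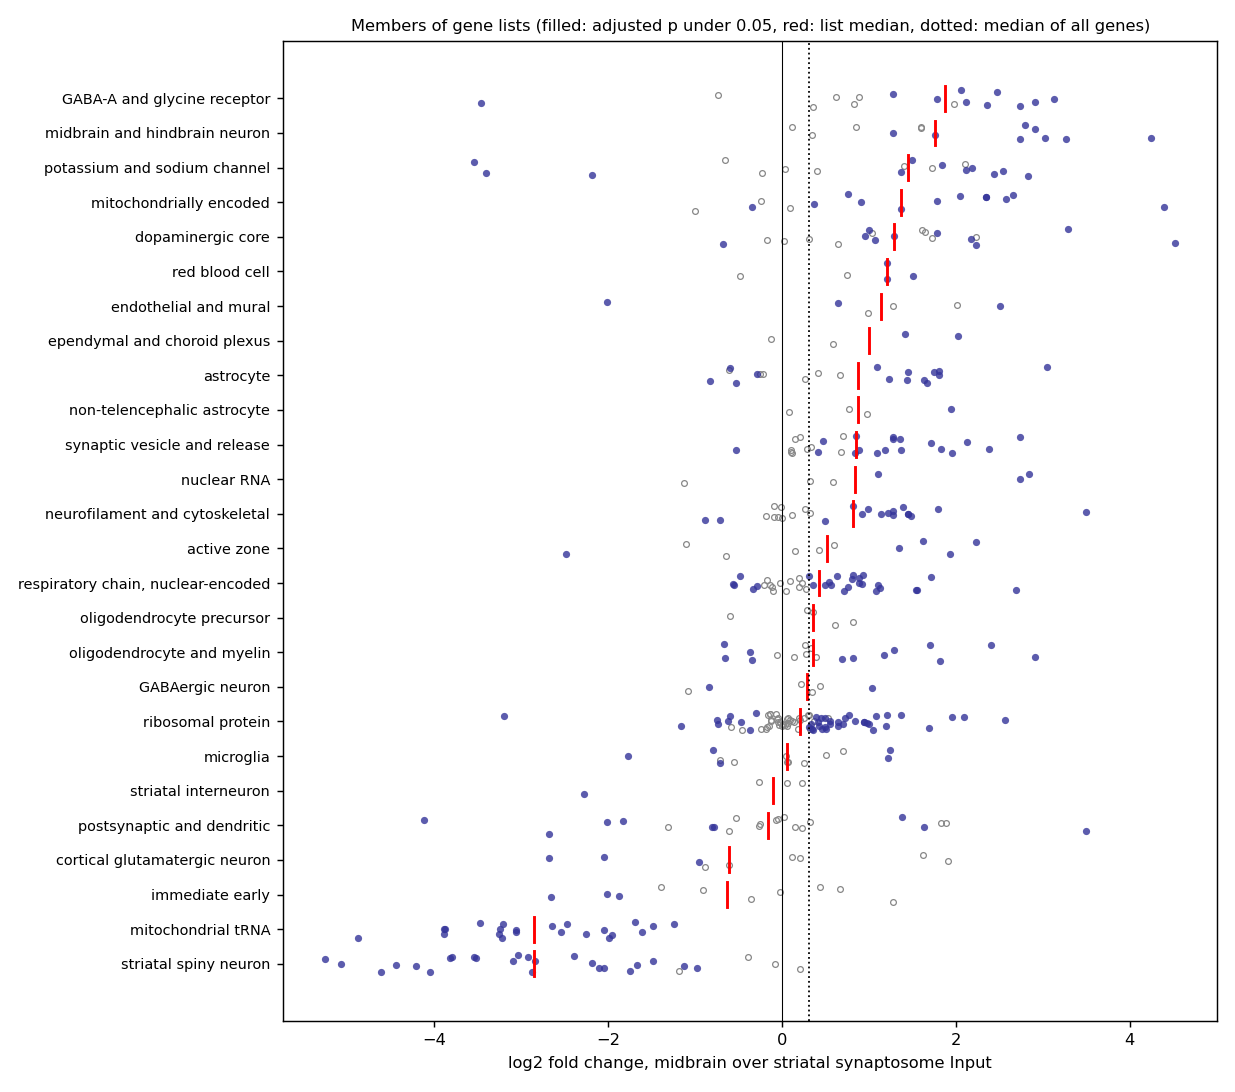
Log2 fold change of midbrain over striatal synaptosome Input for each tested member of the gene lists. The telencephalic astrocyte and sex-linked lists, with 1 tested member each, are not shown. Filled points had an adjusted p under 0.05, red bars are list medians and the dotted line is the median of all 12635 genes (0.31). Spiny neuron genes and mitochondrial tRNAs lie to the left, with medians of -2.85 in both lists.

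RNAs for synaptic release were higher in midbrain. Of 27 tested genes of synaptic vesicles and release, 17 were higher and 1 lower, and the list median was 0.85 (log2, 0.31 for the whole table), whereas in tissue 7 were higher and 8 lower. With TMMwsp scaling 22 were higher and 0 lower. The sum of the list was 8703 to 11622 (median 9976) in midbrain and 3328 to 7528 (median 5709) in striatal synaptosomes, and 7543 to 11773 (median 8628) in striatum tissue. The difference from tissue for this list thus lay on the side of the striatal synaptosomes, whose levels were the lowest of these groups.

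Syt1, the calcium sensor of fast release, was at 768 to 1503 (median 1192) in midbrain and 0 to 696 (median 262) in striatal synaptosomes. Its log2 fold change was 1.96 ± 0.15 (adjusted p = 3.35e-27) in synaptosomes and -0.61 ± 0.10 in tissue. Snap25, a SNARE protein gene, was at 914 to 1589 (median 1296) and 341 to 1010 (median 671), with 0.89 ± 0.12. Scg2, which encodes the dense-core vesicle protein secretogranin II, changed by 1.71 ± 0.16. Vamp1, a vesicle SNARE gene typical of caudal brain regions, changed by 2.13 ± 0.32 in synaptosomes and by 2.62 ± 0.21 in tissue. Rab3c, a vesicle GTPase gene, changed by 2.74 ± 0.27 and had UMIs in 9 of 20 striatal libraries.

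Active zone and postsynaptic genes behaved less uniformly. Of 10 active zone genes 4 were higher and 1 lower, with a median of 0.52. The lower one was Erc1, a scaffold gene, and 58 of its 64 striatal UMIs (90.6%) came from 1 library, without which its log2 fold change was 0.76 and not called in place of -2.48 ± 0.39. Rims1, the gene of a release-site scaffold, changed by 2.24 ± 0.49. Of 22 postsynaptic and dendritic genes 3 were higher and 6 lower in midbrain synaptosomes, with a median of -0.16, and with TMMwsp scaling 5 were higher and 4 lower. In tissue 0 were higher and 19 lower, with a median of -1.77. Ddn, the dendrin gene, had 1 UMI in midbrain and 17 UMIs in 12 striatal libraries. Camk2b, a subunit gene of the calmodulin kinase of dendritic spines, was at 177 to 422 (median 313) and 147 to 858 (median 461), with -0.78 ± 0.16.

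Map2, the gene of the microtubule-associated protein of dendrites, was 1 of the 3 postsynaptic and dendritic genes that were higher. Its level was 501 to 1103 (median 742) in midbrain and 0 to 241 (median 55.2) in striatal synaptosomes, without overlap, as for 51 of all genes tested (0.404%) in this direction. The log2 fold change was 3.50 ± 0.23 (adjusted p = 1.76e-34) in synaptosomes and -0.32 ± 0.12 (adjusted p = 0.0579) in tissue, and the difference was 3.83 ± 0.28 (adjusted p = 1.90e-29). Of 25 neurofilament and cytoskeletal genes 14 were higher and 2 lower, with a median of 0.82, and Stmn2, a growth-associated microtubule regulator gene, changed by 1.79 ± 0.16 and Nefl, the light neurofilament gene, by 1.28 ± 0.13. Their tissue changes were 1.20 ± 0.12 and 1.33 ± 0.11.

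Channel and receptor genes included members of both signs. Of 18 potassium and sodium channel genes 8 were higher and 3 lower, with a median of 1.45. Scn1a, a sodium channel gene of fast-spiking neurons, changed by 2.83 ± 0.38 and Kcnip2, a potassium channel partner also on the spiny neuron list, by -3.54 ± 0.47. Of 16 GABA-A and glycine receptor genes 9 were higher and 1 lower, with a median of 1.88 (0.93 with lower bounds). Gabrd, the delta subunit gene, was at 0 to 65.8 (median 0) in midbrain and 0 to 387 (median 133) in striatal synaptosomes, with -3.46 ± 0.39. It had the same sign in tissue, where the change was -2.83 ± 0.31.

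Glial RNA was present in both preparations. The summed level of 20 astrocyte genes was 12898 to 17742 (median 15076) in midbrain and 12438 to 19175 (median 15464) in striatal synaptosomes, and that of 13 microglia genes 1247 to 2274 (median 1627) and 924 to 2013 (median 1720), so neither sum separated the regions. Among the astrocyte genes 10 were higher and 4 lower (13 and 1 with TMMwsp scaling). Sparcl1, a secreted synaptogenic protein gene, changed by 1.80 ± 0.12 and Slc1a2, the main glutamate uptake carrier gene, by 1.67 ± 0.16, whereas Cst3, the cystatin C gene, changed by -0.82 ± 0.07. In tissue Slc1a2 changed by -0.82 ± 0.10. Of the 4 genes of non-telencephalic astrocytes 1 was higher, and the 1 tested gene of telencephalic astrocytes, Mfge8, a phagocytosis bridging protein gene, changed by -2.09 ± 0.32, beside -1.20 ± 0.19 in tissue.

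Myelin genes were mixed in synaptosomes although uniform in tissue. The summed level of 18 genes was 11228 to 15305 (median 13044) in midbrain and 7378 to 10726 (median 8577) in striatal synaptosomes, without overlap. Yet 8 were higher and 4 lower in midbrain synaptosomes (13 and 0 with TMMwsp scaling), while all 18 were higher in midbrain tissue. Ermn and Car2, genes of an oligodendrocyte cytoskeletal protein and of carbonic anhydrase, changed by 2.41 ± 0.25 and 1.82 ± 0.15.

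For other cell types counts were small. Of 13 microglia genes 2 were higher and 3 lower (5 and 1 with TMMwsp scaling), with the complement genes C1qa at 1.22 ± 0.22 and C1qb at -0.71 ± 0.17, the latter not called with TMMwsp scaling. None of 5 oligodendrocyte precursor genes was called. The endothelial and mural list had 2 higher and 1 lower of 6 tested genes, of 4 ependymal and choroid plexus genes 2 were higher, and of 5 red blood cell genes 3 were higher, with Hbb-bs, a beta-globin gene, at 330 to 739 (median 452) in midbrain and 0 to 375 (median 197) in striatal synaptosomes. Of 10 immediate early genes 3 were lower and 0 higher (3 and 2 with TMMwsp scaling), among them Junb, an AP-1 subunit gene, with -2.66 ± 0.45 and, in tissue, -3.10 ± 0.34. Of 6 nuclear RNAs 3 were higher, and the 1 testable sex-linked gene had 0 UMIs in striatal synaptosomes.

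Mitochondrial RNA changed in opposite directions by RNA type. Mitochondrial DNA is transcribed into long precursors in which tRNAs lie between rRNAs and mRNAs, and the tRNAs are cut out. All 22 mitochondrial tRNAs were lower in midbrain than in striatal synaptosomes, with a median log2 fold change of -2.85. Their log2 values ran from -4.88 (mt-Tc) to -1.23 (mt-Ts1). The groups did not overlap for 13 of them, as for 67 (0.53%) of all genes tested in this direction. In tissue 5 were higher and 1 lower in midbrain, with a median of 0.16, where 5.34% of all genes tested were higher and 11.7% lower. Of the 15 mitochondrial mRNAs and rRNAs 11 were higher and 1 lower in midbrain synaptosomes, with a median of 1.37, whereas in tissue 1 was higher and 10 lower, with a median of -0.45. Mitochondrial tRNA made up 0.178% to 0.659% (median 0.399%) of UMIs other than Dusp10 in midbrain synaptosomes and 2.34% to 5.03% (median 3.35%) in striatal synaptosomes. The tissue medians ran from 0.234% to 0.331%. Sorted small particles, which come from synaptosomes of other mice, had medians of 1.45% (striatum) and 1.45% (cortex), and the synaptosome immunoprecipitates had 0.142% (striatum) and 0.0591% (midbrain).

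4 of these tRNAs are printed as RNA-strand DNA letters from the reference transcripts (GENCODE vM21, build GRCm38), because this class had the lowest median fold change of the RNA classes. Capitals mark the longest run of A, since the libraries were primed on poly(A). Over the 22 mitochondrial tRNAs, of 59 to 75 bases, the longest run of A had 2 to 8 bases (median 4). They are the 3 with the smallest p in the synaptosome contrast and mt-Tm, which was named for its difference from the tissue contrast, that is the cysteine tRNA mt-Tc (chrM:5192-5257, minus strand), the histidine tRNA mt-Th (chrM:11546-11612, plus strand), the phenylalanine tRNA mt-Tf (chrM:1-68, plus strand) and the methionine tRNA mt-Tm (chrM:3845-3913, plus strand).
mt-Tc: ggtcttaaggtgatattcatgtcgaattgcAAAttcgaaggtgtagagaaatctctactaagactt
mt-Th: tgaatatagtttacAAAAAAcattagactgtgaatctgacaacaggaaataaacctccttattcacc
mt-Tf: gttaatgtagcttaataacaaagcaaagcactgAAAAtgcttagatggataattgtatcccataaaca
mt-Tm: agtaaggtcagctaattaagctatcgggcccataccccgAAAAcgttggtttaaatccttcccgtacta

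The tRNA mt-Tc was at 57.6 to 580 (median 287) in midbrain and 5598 to 13775 (median 8277) in striatal synaptosomes, and at medians of 72.5 in striatum and 76.7 in SNc tissue. Its log2 fold change was -4.88 ± 0.10 (adjusted p = 1.19e-109) in synaptosomes and 1.09 ± 0.20 in tissue. For mt-Th the levels were 144 to 560 (median 305) and 2879 to 7154 (median 4605), with -3.88 ± 0.10, and for mt-Tm 151 to 570 (median 359) and 712 to 3248 (median 2275), with -2.65 ± 0.11. No run of A longer than 3 bases occurs in mt-Tc, the tRNA with the largest change. Whether the length of the A run goes with the change over the tRNAs was not tested.

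The 12S rRNA mt-Rnr1 showed the reverse. Its level was 15601 to 25095 (median 20388) in midbrain and 4290 to 7916 (median 5469) in striatal synaptosomes, with a log2 fold change of 1.79 ± 0.07 (adjusted p = 2.46e-63), beside -0.12 ± 0.10 in tissue. The complex I mRNAs mt-Nd2 and mt-Nd5 were at 1899 to 3753 (median 3112) and 2216 to 3872 (median 3273) in midbrain, and at 107 to 889 (median 451) and 99.0 to 955 (median 487) in striatal synaptosomes. Their log2 fold changes were 2.66 ± 0.12 and 2.58 ± 0.11, with tissue values of -0.33 ± 0.10 and -0.25 ± 0.09. In striatum tissue both mRNAs were at medians of 4997 and 4062, near the midbrain synaptosomes and far above the striatal ones. mt-Nd4 changed by 1.37 ± 0.10 and mt-Atp8, an ATP synthase mRNA, by 2.35 ± 0.16. The 1 mitochondrial mRNA that was lower, mt-Nd1, was named after its value was seen and changed by -0.34 ± 0.08, which turned to 0.22 with TMMwsp scaling, 0.23 with TMM and 0.02 with total UMIs.

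Nuclear genes for mitochondrial and ribosomal proteins changed less. Of 38 respiratory chain genes 21 were higher and 5 lower, with a median of 0.43, and of 79 tested ribosomal protein genes of 82 listed 33 were higher and 9 lower, with a median of 0.21, below that of all genes. With TMMwsp scaling these splits were 34 and 0, and 65 and 2. Uqcrb and Cox6c, subunit genes of complexes III and IV, changed by 2.69 ± 0.27 and 1.56 ± 0.12, and Cox4i1, another complex IV subunit gene, by -0.55 ± 0.08, which turned to 0.02 with TMMwsp and 0.03 with TMM scaling.

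**Figure D3:**
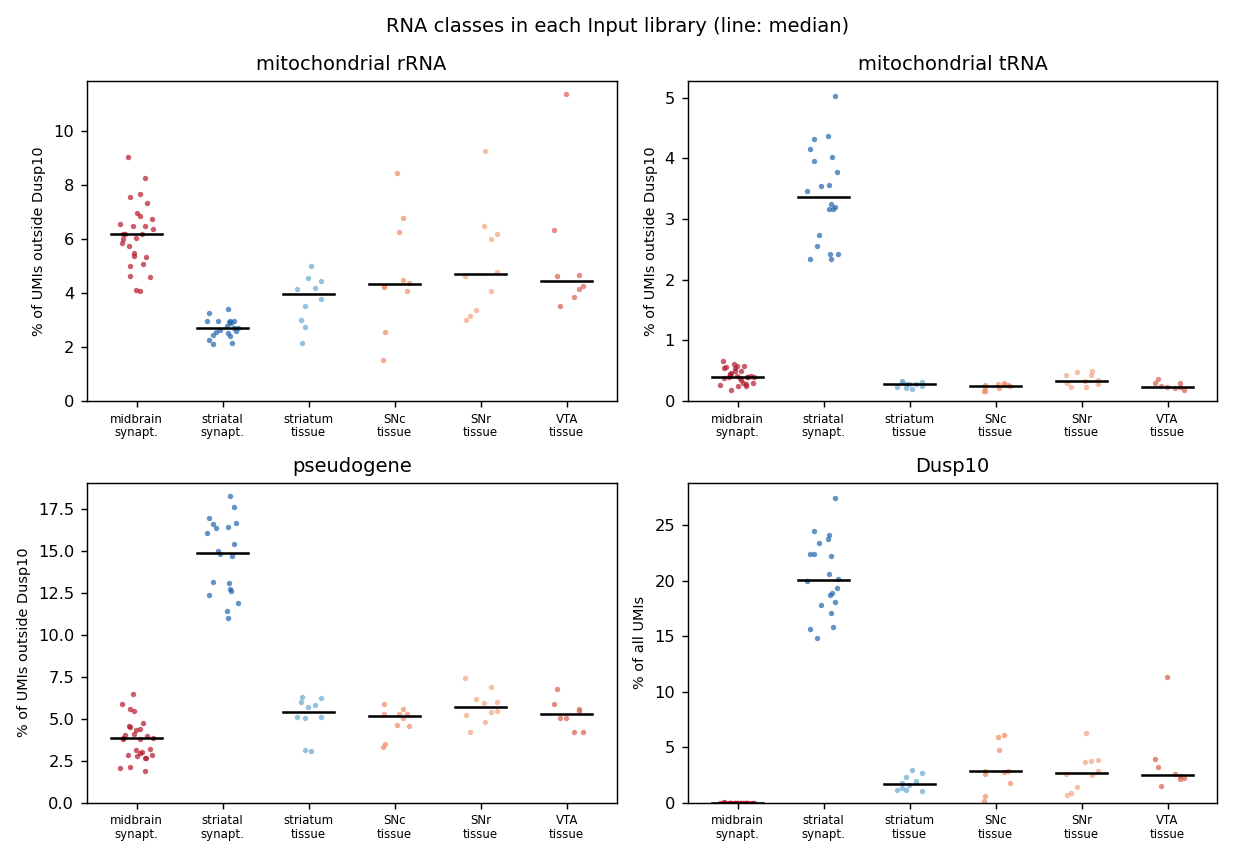
Share of UMIs in each Input library for pseudogenes, mitochondrial tRNA and mitochondrial rRNA (percent of UMIs other than Dusp10) and for Dusp10 (percent of all UMIs). Points are libraries and lines are medians. The striatal synaptosomes stand apart from the midbrain synaptosomes and the 4 tissues in pseudogene share (median 14.9% against 3.82% in midbrain synaptosomes), in tRNA share and in Dusp10.

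Pseudogenes made up most of the decrease by number. They were 12.6% of the genes tested, 1.95% of the higher and 52.8% of the lower calls in midbrain synaptosomes, and 3.60% of the lower calls in tissue. Their share of UMIs other than Dusp10 was 1.88% to 6.44% (median 3.82%) in midbrain and 11% to 18.2% (median 14.9%) in striatal synaptosomes, and the tissue medians were between 5.15% and 5.68%. Reads of a pseudogene can come from its near-identical parent, so single pseudogenes are uncertain. Nuclear protein-coding genes were 84.2% of the genes tested, 96.0% of the higher and 42.1% of the lower calls.

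Of the most significant lower genes 3 had few or no UMIs in the midbrain synaptosomes and in the tissue Inputs. Il20rb (chr9:100457719-100486788, minus strand), an interleukin receptor subunit gene, was at 3921 to 12384 (median 8594) in striatal synaptosomes and at 0 UMIs in midbrain synaptosomes and all 4 tissues, which makes it at least 4636-fold lower in midbrain synaptosomes. Gm14302 (chr2:164459896-164460955, minus strand), an antisense gene whose reads may belong to its partner if strand was not used in counting, was at 314 to 2165 (median 1068) and at 0 in midbrain synaptosomes, at least 629.7-fold lower, with 2 UMIs in all tissue libraries. Kat6b-ps1 (chr7:13653996-13657428, plus strand), a pseudogene of a histone acetyltransferase, was at 594 to 2969 (median 2114) in striatal and had 2 UMIs in midbrain synaptosomes, with tissue medians of 7.31 to 17.5. Dusp10 (chr1:184013302-184075636, plus strand) had a log2 fold change of -13.72 ± 0.14, beside median shares of 1.68% to 2.81% of UMIs in the 4 tissues.

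Other such genes were also read in the other groups. Hsd17b11 (chr5:103989762-104021919, minus strand), a lipid droplet dehydrogenase gene, was at 2417 to 11407 (median 6342) in midbrain and 25152 to 34807 (median 29286) in striatal synaptosomes, with -2.30 ± 0.08, and at tissue medians of 2742 to 2905. Gm43333 (chr5:104070064-104072325, minus strand), which lies near it, was at 806 to 5646 (median 2625) and 12274 to 17257 (median 14089), with -2.40 ± 0.09. Vps8 (chr16:21423118-21644680, plus strand), an endosomal tethering subunit gene, was at 30.0 to 236 (median 148) and 1316 to 3683 (median 1780), with -3.76 ± 0.12. Vwa1 (chr4:155768149-155774698, minus strand), a matrix protein gene, was at 0 to 71.0 (median 17.9) and 78.4 to 1417 (median 988), with -5.34 ± 0.21. In tissue Vps8, Vwa1, Hsd17b11 and Gm43333 had adjusted p-values of 0.340, 0.230, 0.155 and 0.0628 between midbrain and striatum. Since plate and region coincide in the synaptosomes and not in the tissue, what part of these values goes with the plate was not tested.

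Among the most significant higher genes were several of general use to neurons. Hsp90aa1, a stress-inducible chaperone gene, was at 1202 to 1758 (median 1384) in midbrain and 56.5 to 774 (median 316) in striatal synaptosomes, with 2.01 ± 0.13, beside 0.14 ± 0.12 in tissue. Atp1b1, the sodium pump beta subunit gene, changed by 1.53 ± 0.11. Rpl22l1, the paralog of the ribosomal protein gene that RiboTag modifies, was at 405 to 866 (median 606) and 0 to 205 (median 28.3), with 3.34 ± 0.25, beside -0.01 ± 0.11 in tissue. Malat1, a nuclear noncoding RNA, was at 524 to 1005 (median 673) in midbrain and 0 to 310 (median 85.1) in striatal synaptosomes, with 2.74 ± 0.20. Its level was 3432 to 11374 over the 4 tissues, so both synaptosome groups held far less of it than tissue.

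**Figure D4:**
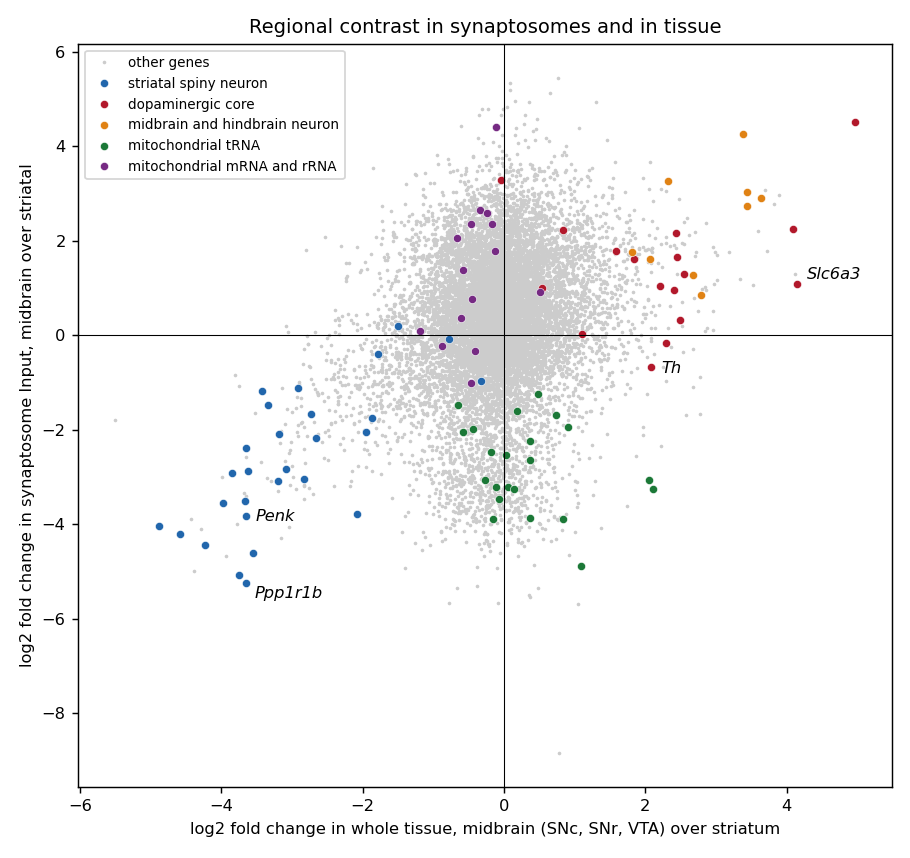
Log2 fold change of midbrain over striatal synaptosome Input (vertical) against that of midbrain tissue (SNc, SNr and VTA) over striatum tissue (horizontal) for genes tested in both. Grey points are other genes, without those past 10 on the vertical axis, and colours mark 5 gene lists. Spiny neuron genes lie low on both axes, mitochondrial tRNAs fall below 0 on the synaptosome axis alone, and Th lies right of and below 0.

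The synaptosome contrast shared a part of its genes with the tissue contrast. In tissue 763 (5.34%) of 14283 genes were higher and 1666 (11.7%) lower in midbrain than in striatum. Of the 12286 genes tested in both, 334 genes were higher in both, which is 14.6% of the synaptosome and 45.4% of the tissue calls, and 326 were lower in both, which is 17% and 21.8%. Of all these genes 18.6% were called higher and 15.7% lower in midbrain synaptosomes, and 5.99% higher and 12.2% lower in midbrain tissue. Among the 10466 nuclear protein-coding genes, 328 were higher in both (14.9% and 46.3%) and 281 lower in both (33.5% and 20%), where 8.02% were lower in midbrain synaptosomes and 13.4% in midbrain tissue. A further 245 genes were higher in midbrain synaptosomes and lower in midbrain tissue, and 39 the reverse. Across genes, which are not independent, the fold changes had a Pearson correlation of 0.21 and a Spearman correlation of 0.18. The libraries of both contrasts were separate, but synaptosomes and tissue were on different plates.

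Tested in 1 model over 86 libraries, the contrasts differed for 1981 (12.6%) of 15778 genes that were more positive and 1393 (8.83%) that were more negative in synaptosomes, with a median difference of 0.38 over all genes. With TMMwsp scaling that median was 1.00 and 85.8% of calls were positive, against 58.7%. Of the 32 spiny neuron genes 8 were more positive and 3 more negative, and 21 were not called. In the dopaminergic list 1 of 19 was more positive and 6 more negative, and for mitochondrial tRNAs 0 and 21 of 22. In the synaptic vesicle list 14 of 27 were more positive and 1 more negative, and in the postsynaptic list 14 and 0 of 22. Calm2, a calmodulin gene, changed in opposite directions, with 1.12 ± 0.12 in synaptosomes and -1.08 ± 0.09 in tissue, a difference of 2.18 ± 0.15 (adjusted p = 2.73e-33).

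Few genes differed by genotype. Of 12635 genes 7 (0.0554%) were higher and 17 (0.135%) lower in RiboTag_DATCrePos than in RiboTag_DATCreNeg synaptosomes, and DESeq2 called 0. No member of any of the 28 gene lists was among the 24. The regional contrast depended on genotype for 0 genes (719 at an unadjusted p under 0.05, 0 by DESeq2). In RiboTag_DATCreNeg libraries alone 20 spiny neuron genes were lower and 8 dopaminergic genes higher in midbrain, and in RiboTag_DATCrePos libraries alone 20 and 8.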

How the data were processed

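The authors deposited counts, UMIs per gene and well, for 48531 genes. Per the labels and the study's methods, RNA was reverse transcribed with barcoded oligo(dT) primers, the wells of a plate were pooled, poly(A) was trimmed, reads were aligned with STAR to GRCm38 with GENCODE vM10, and reads whose UMIs differed by at most 1 base were collapsed per gene and well. Libraries were grouped by the labels (region, fraction, genotype). Of 24 striatal synaptosome Inputs 4 had under 10000 UMIs (1137 to 9760) and were left out, as were 2 VTA tissue libraries.

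Genes with at least 10 UMIs over the libraries of a comparison were tested with edgeR 4.0.16 (quasi-likelihood test, R 4.3.3) with genotype as covariate and the ratio size factors of DESeq2 1.42.0, and p-values were adjusted by Benjamini and Hochberg over all genes of the comparison. The tissue contrast took the mean of SNc, SNr and VTA against striatum, and the difference between contrasts came from 1 fit of all 86 libraries. Totals were compared with scipy 1.17.1. The scripts were tested on simulated counts. Library sizes of the levels leave out Dusp10. Lower bounds set a group without UMIs to 3 UMIs. Gene types and positions are from GENCODE vM21 (48144 identifiers matched).

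The libraries, gene lists and tests were chosen with earlier results of these data known. The genes named are the 12 per direction with the smallest p at or above median level, up to 6 per list with the smallest p, 12 fixed genes (Th, Slc6a3, Ddc, Slc18a2, Ppp1r1b, Penk, Drd1, Drd2, Adora2a, Slc17a6, Slc17a7 and Actb) and the 6 per direction with the smallest p for the difference between contrasts, apart from those said to be named after their values were seen and from some not reported here. Alternatives covered scaling, gene filters, the test, the depth limit, thinning, genotype and single tissues.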

Additional observations from a re-analysis of the deposited data

Results flagged for a closer look

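For 58 of the 83 genes named in the report the synaptosome and tissue contrasts differed in the test of their difference (log2, synaptosome minus tissue). The difference was positive for Map2 (3.83), Malat1 (3.40), Rpl22l1 (3.33), Rims1 (3.02), mt-Nd2 (2.95), mt-Nd5 (2.80), mt-Atp8 (2.77), Uqcrb (2.62), Syt1 (2.56), Slc1a2 (2.49), Rab3c (2.27), Calm2 (2.18), Rarb (2.03), Scg2 (1.99), Hsp90aa1 (1.89), mt-Rnr1 (1.89), mt-Nd4 (1.89), Scn1a (1.70) and Rgs2 (1.67). Smaller positive differences were found for Cox6c (1.45), Gnal (1.38), Ermn (1.23), Camk2b (1.04), C1qa (0.97), Atp1b1 (0.97), Car2 (0.90), Hbb-bs (0.87), Arpp21 (0.85), Nrgn (0.68), Snap25 (0.68), Sparcl1 (0.64), Stmn2 (0.58) and Actb (0.42). The difference was negative for Dusp10 (-14.58), Kat6b-ps1 (-10.04), mt-Tc (-6.01), Vwa1 (-5.92), mt-Th (-4.75), mt-Tf (-3.79), Vps8 (-3.54), mt-Tm (-3.06), Slc6a3 (-3.01), Th (-2.78), Erc1 (-2.30), Gm43333 (-2.17) and Hsd17b11 (-2.14). Smaller negative differences were found for mt-Ts1 (-1.77), Slc18a2 (-1.70), Ppp1r1b (-1.70), Ddc (-1.45), Nefh (-1.38), Rgs9 (-1.28), Aldh1a1 (-1.26), C1qb (-1.17), Pvalb (-0.98), Mfge8 (-0.95), Cst3 (-0.89) and Cox4i1 (-0.80). Of the striatal UMIs of Erc1, 90.6% came from 1 library. For Il20rb and Gm14302, of which the tissue libraries held 0 and 2 UMIs, the edgeR test did not call the difference. The DESeq2 Wald test gave -11.91 (adjusted p = 4.12e-38) and -9.22 (adjusted p = 3.02e-22). The sizes rest on these few tissue counts and are uncertain.

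In 46 checks of a cell type marker gene or Actb in a group of 8 to 10 libraries, 6 libraries lay far from the others of their tissue group. The limit used marks about 1 group in 20 by chance if values are normally distributed. Its rate for sparse UMI counts was not checked. Ppp1r1b reached 206 and Slc17a7 59.9 in 1 SNc library each. Slc6a3 reached 135, Slc17a6 82.6 and Slc17a7 72.3 in SNr libraries, and Drd2 reached 11.1 in a VTA library. These are the highest values of their groups. Only tissue groups were of a size that this check covers, so the synaptosome groups of 28 and 20 libraries were not checked in this way.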

How the results depend on the processing

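No paired analysis was possible because the labels give no replicate or animal number. Whether both regions came from the same mice is therefore unknown. Of the values of genes named in the text, 2898 kept their direction and side of the threshold under an alternative, 125 kept the direction but were no longer called, 57 became called and 30 reversed. The causes of these changes were not tested, and the words in brackets below only describe how a fit differed.

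The 4378 genes called between synaptosome groups became 643 with the filterByExpr filter and 2770 among nuclear protein-coding genes (fewer genes tested), and 1762 with libraries of at least 20000 UMIs, 2145 with RiboTag_DATCreNeg and 2779 with RiboTag_DATCrePos libraries alone (fewer libraries), and 2192 after thinning to 10000 UMIs. With all 52 libraries the split was 3442 higher and 1783 lower, among protein-coding genes alone 68.1% of calls were higher, and with filterByExpr 64.9%, against 52.7%. The 2429 tissue calls became 985 with filterByExpr, 1358 for VTA alone and 1558 in RiboTag_DATCreNeg libraries, and 2177 without the 6 libraries that stood apart. The 3374 differences between contrasts became 5853 with TMMwsp, 5850 with TMM, 1157 with filterByExpr, 7726 with all libraries, 1439 with libraries of at least 20000 UMIs and 2193 among protein-coding genes. Of the 7726, 2619 were also called with the same sign in the fit reported above, and a further 45 were called there with the opposite sign. The 24 genes that differed by genotype became 0 with filterByExpr and 0 with DESeq2. The 0 genes whose regional contrast depended on genotype became 1 with filterByExpr, 8 without a filter and 10 with the legacy quasi-likelihood fit, which was chosen after seeing the data, as were the protein-coding fit and those without single libraries. That test was not run at 20000 UMIs, where it could not be fitted.

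In the synaptosome contrast 3 named genes reversed with scaling. Actb gave 0.55 with TMMwsp, 0.56 with TMM, 0.35 with total UMIs and 0.28 with all libraries, mt-Nd1 0.22, 0.23 and 0.0223 with the first 3 of these, and Cox4i1 0.0198 with TMMwsp and 0.0305 with TMM. Erc1 gave 0.0751 in RiboTag_DATCreNeg libraries and 0.76 without its richest striatal library. In the difference between contrasts, TMMwsp and TMM gave 0.0043 and 0.00758 for Cst3, 0.80 and 0.80 for Nefl, and 0.0779 and 0.0803 for Cox4i1. With all libraries that difference was 1.07 for Pde1b, 0.17 for C1qb, 0.0693 for Aldh1a1, 0.59 for Cst3, 1.36 for Nefl, 1.08 for Penk, 0.61 for Cox4i1, 0.30 for Pvalb and 0.38 for Mfge8. In tissue, SNr alone gave -0.0826 for Dlk1 and 0.96 for mt-Tf, and VTA alone 0.53 for Scg2 and -0.40 for Cst3. Depth limited the striatal synaptosomes most, and genes with few UMIs there could change several-fold without a call.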
